A study of Mus musculus with 9 samples.

Results

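The genes described here are 10 markers of microglia and other tissue macrophages, defined by a list of Ensembl identifiers and not by measured values. In the authors' table each identifier ends in _at, and all 10 were present among the 12188 genes of the deposited table. RNA came from the dorsal telencephalon, the embryonic forebrain wall that forms the cerebral cortex, of mouse embryos of strain C57Bl6/J at E13.5 (embryonic days). There were 5 knockout embryos (numbered 5, 7, 9, 10 and 11), all labelled male, with a conditional knockout of Dicer, the ribonuclease that makes mature microRNAs, and their tissue is labelled as depleted of microRNAs. The 4 control embryos, not depleted of microRNAs, carry the genotype label control and sample titles beginning with HTZ, which may stand for heterozygous. Whether they were wild type is thus unknown. Controls 1 and 2 are labelled female and controls 3 and 4 male. The driver of recombination, and so the cell types in which Dicer was removed, is not given in the sources used here, and some embryos were littermates without it being stated which.

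Microglia are the resident macrophages of the brain. They descend from macrophages of the yolk sac that enter the neural tube during early embryonic life, and they need signalling through the receptor Csf1r to survive. Related macrophages settle in the meninges and around blood vessels, and both kinds engulf dying cells. A dissected embryonic telencephalon holds few such cells among many neural progenitors and neurons, so their transcripts are measured as a minor part of the whole. In RNA from whole tissue, fewer cells of a type and less RNA per cell cannot be told apart.

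Each array gave 1 log2 value per gene, already processed by the authors. Array medians lay between 7.61 and 7.75. Control 4 stood apart from the other arrays of its group at many genes, and the genotype differences are therefore given with and without it. The probes behind different genes differ in brightness, so levels are compared between embryos and never between genes. Markers of other cell types and Dicer itself were not analysed here, because the files do not pair identifiers with symbols and only the 10 members had names.

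When the knockouts were compared with the controls, 0 of the 10 macrophage genes passed a limma adjusted p under 0.05, against 24.6% of all genes. The standard error of the difference had a median of 0.213 log2 units over the 10 genes and 0.0938 over all genes. With errors of this size, a miss does not show that the levels of the 10 genes were alike. The clearest feature of these genes was a single control embryo. Control 4 had the highest value of all 9 arrays at each of the 10 genes, and at 21.3% of all genes. At the 10 genes it lay 0.41 to 1.61 log2 units over the mean of controls 1 to 3. Among the knockouts, embryo 11 was highest at 9 of the 10 genes (13.2% of all genes) and embryo 5 lowest at 8 (34.4% of all genes). With all 9 arrays the knockout mean was below the control mean at 10 of 10 genes, but without control 4 it was below at 7 and above at 3.

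**Figure D1:**
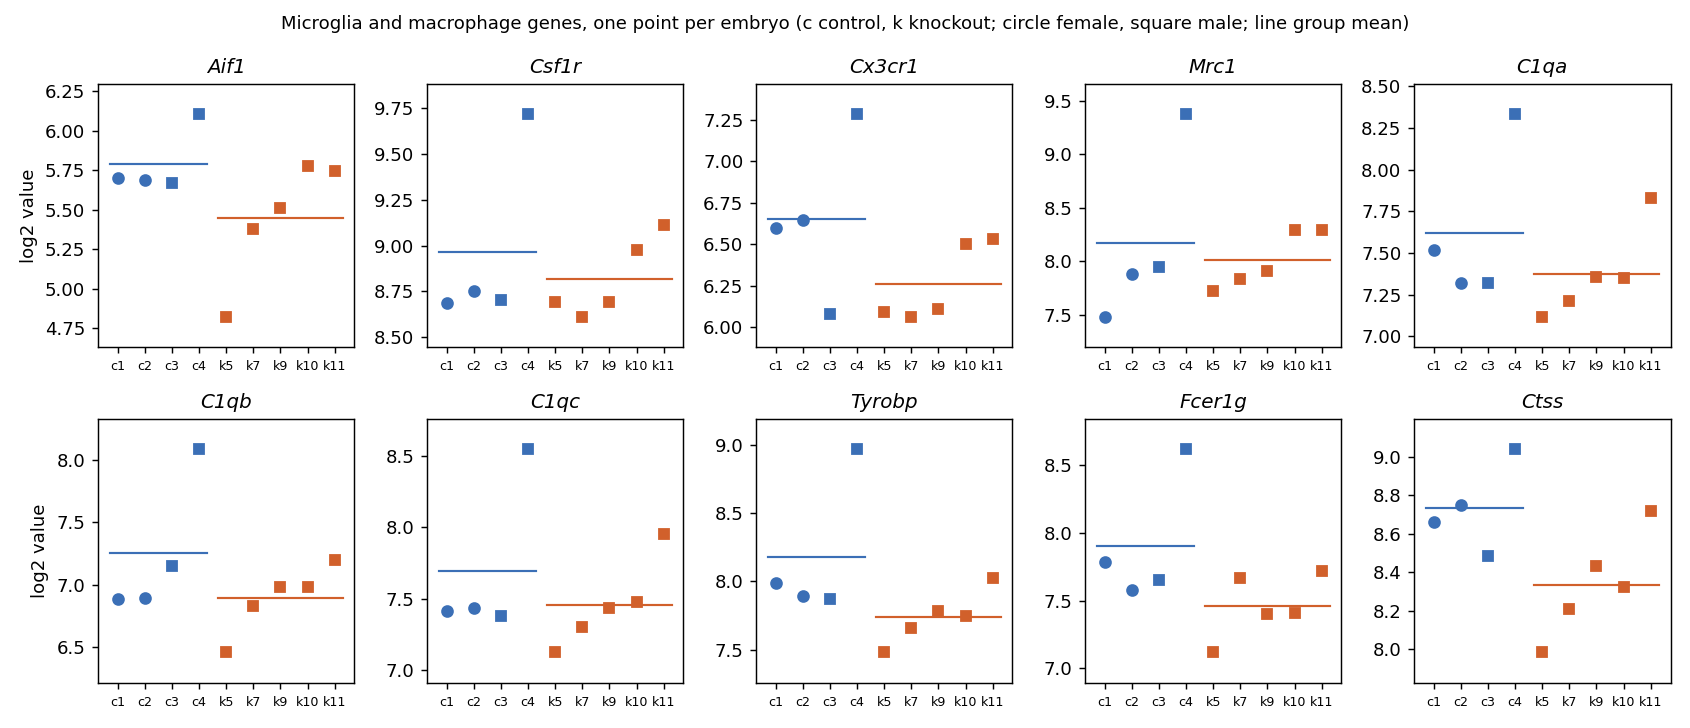
Log2 value (vertical axis of each panel, on its own scale) of the 10 genes in each embryo, with controls c1 to c4 in blue and knockouts k5 to k11 in orange, circles for embryos labelled female, squares for male, and a line at each group mean. Control 4 is the highest point in all 10 panels, while the other controls and the knockouts overlap.

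Csf1r (ENSMUSG00000024621_at) encodes the receptor for the growth factors Csf1 and Il34, on which macrophages depend. Its log2 values were 8.69, 8.75, 8.71 and 9.72 in controls 1 to 4, and 8.69, 8.61, 8.69, 8.98 and 9.11 in knockouts 5, 7, 9, 10 and 11. Controls 1 to 3 lay within 0.067 log2 units of each other, inside the range of the knockouts, and control 4 lay 0.61 above knockout 11, the next array. Knockouts averaged 8.82 ± 0.22 (SD, n = 5) and controls 8.97 ± 0.50 (SD, n = 4). The difference was -0.15 log2 units (SE 0.21, 95% interval -0.62 to 0.32, limma adjusted p = 0.651). Without control 4 its sign turned, to 0.10.

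Cx3cr1 (ENSMUSG00000052336_at) encodes the receptor for the neuronal chemokine fractalkine and marks microglia from early stages. Its log2 values in controls 1 to 4 were 6.60, 6.64, 6.08 and 7.28. The knockouts had 6.09, 6.06, 6.11, 6.50 and 6.53, in the order of their numbers. Here the arrays formed a low set (control 3 with knockouts 5, 7 and 9) and a higher one (controls 1 and 2 with knockouts 10 and 11), with control 4 above both. Control 3 was thus nearest to the lower knockouts and apart from controls 1 and 2, whereas controls 1 to 3 were alike at Csf1r. The knockout was lower by a difference of -0.39 log2 units (SE 0.21, 95% interval -0.86 to 0.08, limma adjusted p = 0.215), which did not pass the threshold, and -0.18 without control 4.

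Mrc1 (ENSMUSG00000026712_at) encodes the mannose receptor, which in the brain marks macrophages of the meninges and vessels more than mature microglia. It was measured at 7.48, 7.88, 7.94 and 9.38 log2 units in controls 1 to 4 and at 7.72, 7.83, 7.91, 8.29 and 8.30 in knockouts 5, 7, 9, 10 and 11. All 5 knockouts lay above control 1, and 2 of them lay above controls 1 to 3. Of the 10 genes, Mrc1 had the widest distance of control 4 from the mean of the other controls, 1.61 log2 units or 3.05-fold. This distance was matched or exceeded by 0.361% of all genes. The genotype difference of -0.16 (SE 0.33, 95% interval -0.89 to 0.56, limma adjusted p = 0.763) had the largest error of the 10. Without control 4 its sign turned, to 0.24.

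C1qa (ENSMUSG00000036887_at), C1qb (ENSMUSG00000036905_at) and C1qc (ENSMUSG00000036896_at) encode the chains of C1q, the recognition molecule of the classical complement pathway, which microglia make and which tags synapses and cell debris. The RefSeq annotation places the genes side by side on chromosome 4 with no other gene between them. The upstream sequences of C1qb, C1qc and Mrc1 are shown because, of the genes searched, these hold the letters AGGAAGT wholly before the start. A match was thus the condition for being shown. Capitals mark the letters AGGAAGT on either strand, the core of sites bound by Ets factors such as Spi1 (PU.1), a master regulator of macrophages. Sequences are from RefSeq on GRCm38.p6, written 5′ to 3′ on the strand of the gene and ending at the base before its start.
C1qb (chr4:136886201-136886350, minus strand): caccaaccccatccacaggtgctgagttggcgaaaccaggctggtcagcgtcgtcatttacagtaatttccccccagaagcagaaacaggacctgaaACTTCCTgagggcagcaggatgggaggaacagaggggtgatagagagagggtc
C1qc (chr4:136892915-136893129, minus strand): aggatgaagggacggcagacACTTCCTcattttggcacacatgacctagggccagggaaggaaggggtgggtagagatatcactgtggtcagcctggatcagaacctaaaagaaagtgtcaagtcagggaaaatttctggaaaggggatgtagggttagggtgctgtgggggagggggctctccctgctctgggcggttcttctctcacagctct
Mrc1 (chr2:14229183-14229413, plus strand): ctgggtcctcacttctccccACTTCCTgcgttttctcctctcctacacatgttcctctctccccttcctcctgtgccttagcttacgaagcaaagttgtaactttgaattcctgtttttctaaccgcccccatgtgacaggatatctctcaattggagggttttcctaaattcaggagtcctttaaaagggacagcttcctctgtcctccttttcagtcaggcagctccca
The RefSeq promoter table held 7 of the 10 genes: Aif1, Cx3cr1, C1qb, C1qc, Fcer1g, Mrc1 and Ctss. In windows of 300 bases, from 250 before to 50 after the start, AGGAAGT on either strand was found in 4 of these 7 (Mrc1, Ctss, C1qb and C1qc), against 9.27% of 32544 promoters. At Ctss it spans the start itself. The longer GAGGAAGT, which contains it, was found in 2 of the 7 (Ctss and C1qc), against 3.11% of promoters. A match describes the letters only, and nothing was measured at these sites.

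Expression of C1qa was 7.52, 7.32, 7.32 and 8.33 log2 units in controls 1 to 4, and 7.12, 7.21, 7.36, 7.35 and 7.83 in knockouts 5, 7, 9, 10 and 11. For C1qb the controls had 6.88, 6.89, 7.15 and 8.08, and the knockouts 6.46, 6.83, 6.98, 6.98 and 7.20. For C1qc the controls had 7.41, 7.44, 7.38 and 8.54, and the knockouts 7.12, 7.30, 7.43, 7.48 and 7.95. The order of the embryos was much the same at the 3 genes: knockout 5 was lowest of all 9 arrays, knockout 11 was second highest and control 4 was highest. Control 4 exceeded the mean of the other controls by 0.95 log2 units at C1qa, 1.11 at C1qb and 1.14 at C1qc, or 1.93-fold, 2.15-fold and 2.2-fold. The values of C1qb in knockouts 9 and 10 were identical in every deposited digit. Such ties between arrays occurred at 24.4% of all genes.

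The 3 C1q differences between genotypes were -0.25 for C1qa, -0.36 for C1qb and -0.23 for C1qc on the log2 scale. Their limma adjusted p values were 0.454, 0.317 and 0.543. Without control 4 the differences were -0.011, -0.084 and 0.049 log2 units, so that the sign turned for C1qc. The 95% intervals of that fit, -0.33 to 0.31, -0.42 to 0.25 and -0.30 to 0.40, leave room for changes of up to about these sizes in either direction.

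Tyrobp (ENSMUSG00000030579_at, also DAP12) and Fcer1g (ENSMUSG00000058715_at, the common Fc receptor gamma chain) encode small membrane adaptors that carry the activating signal of many myeloid receptors. Tyrobp had 7.99, 7.90, 7.87 and 8.96 log2 units in controls 1 to 4 and 7.48, 7.66, 7.78, 7.75 and 8.03 in knockouts 5, 7, 9, 10 and 11. Here 4 of the 5 knockouts lay below all controls, while knockout 11 lay above controls 1 to 3. Fcer1g had 7.78, 7.58, 7.65 and 8.62 in the controls and 7.12, 7.67, 7.40, 7.41 and 7.72 in the knockouts. In this gene knockouts 7 and 11 lay among controls 1 to 3 and the other 3 knockouts below them.

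The adaptors showed the largest genotype differences of the 10 genes by point estimate. Tyrobp was at -0.44 log2 units (SE 0.21, 95% interval -0.92 to 0.037, limma adjusted p = 0.168). Fcer1g was also at -0.44 (SE 0.21, 95% interval -0.91 to 0.021, limma adjusted p = 0.153). Both intervals include 0, and without control 4 the differences were -0.18 and -0.21. Ctss (-0.30), Mrc1 (0.24) and Aif1 (-0.24) then had larger differences than either adaptor.

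Ctss (ENSMUSG00000038642_at) encodes cathepsin S, a lysosomal protease of macrophages and other antigen-presenting cells. Its log2 values were 8.66, 8.75, 8.49 and 9.04 in controls 1 to 4, and 7.98, 8.21, 8.43, 8.32 and 8.72 in knockouts 5, 7, 9, 10 and 11. Knockouts 5, 7, 9 and 10 lay below every control, and knockout 11 lay between controls 1 and 2, so the groups overlapped by 1 embryo. Ctss came nearest to a call of the 10 genes, at -0.40 log2 units (SE 0.15, 95% interval -0.73 to -0.065, limma adjusted p = 0.0805), or 0.758-fold. It passed in 1 of 16 alternatives, the one without knockout 11, the knockout that overlapped the controls. There it was at -0.50 log2 units with a limma adjusted p of 0.033, and 2290 of all 12188 genes passed. Unlike at the receptors and C1q, control 4 was only 0.41 log2 units over the mean of the other controls, and without it the difference was -0.30 (limma adjusted p = 0.162).

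Aif1 (ENSMUSG00000024397_at) encodes Iba1, the actin-binding protein used most widely to stain microglia. It was measured at 5.70, 5.69, 5.67 and 6.10 log2 units in controls 1 to 4 and at 4.82, 5.37, 5.51, 5.78 and 5.75 in knockouts 5, 7, 9, 10 and 11. Controls 1 to 3 were within 0.036 log2 units of each other, whereas the knockouts spanned 0.957, with knockout 5 far below the rest. The difference was -0.34 log2 units (SE 0.19, 95% interval -0.76 to 0.071, limma adjusted p = 0.215), and -0.24 without control 4. Background signal shrinks the changes of dim genes in array summaries, and no call of detection per gene came with the values.

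Over the 10 genes, 0 passed an adjusted p under 0.05 in limma, while 24.6% of all genes did (11% higher and 13.6% lower in the knockout). At an unadjusted p under 0.05 there was 1 member, Ctss, against 36.7% of all genes. At no member did the knockout and control values separate without overlap, which they did at 24.1% of all genes. The median difference over the 10 was -0.35 log2 units, against -0.016 over all genes. The standard error had a median of 0.213 log2 units over the members and 0.0938 over all genes. A miss at this error does not show that the levels were alike: the lower ends of the 95% intervals ran to -0.92, at Tyrobp.

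Without control 4 the number of members called was again 0, while 26.8% of all genes were called (12.2% higher and 14.6% lower). At an unadjusted p under 0.05 there were 0 members, against 38.3% of all genes. The median member difference became -0.13 log2 units, against -0.015 over all genes. Knockout means were then above the control means at Csf1r (0.10 log2 units), C1qc (0.049) and Mrc1 (0.24), and below at the other 7. The standard error fell at 9 of the 10 genes, for instance from 0.33 to 0.16 log2 units at Mrc1, and the Mrc1 interval ran from -0.12 to 0.60. The count of 10 lower genes thus depends on 1 embryo.

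**Figure D2:**
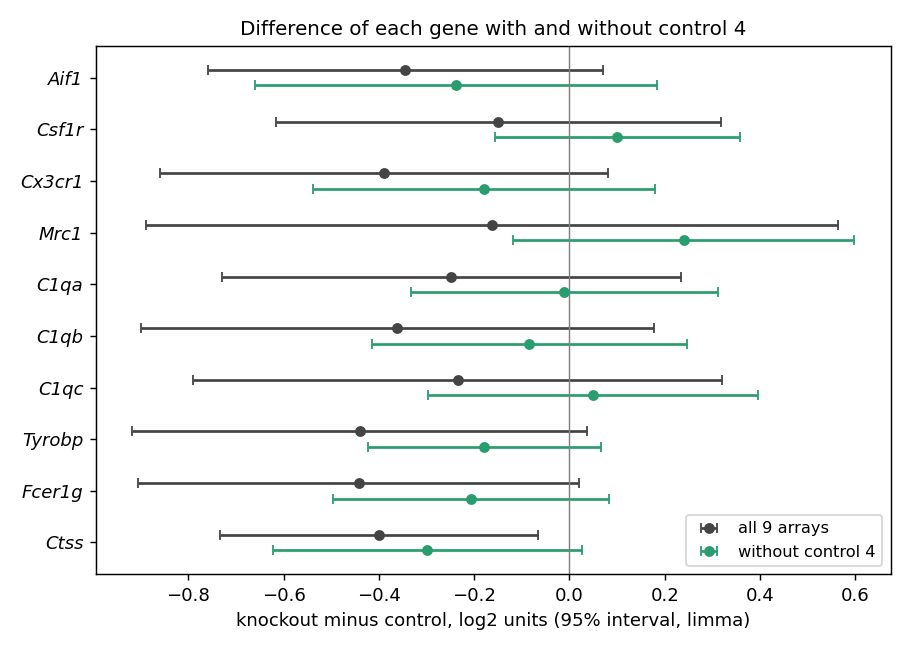
Knockout minus control difference in log2 units (horizontal axis) with its 95% limma interval for each gene, over all 9 arrays (dark) and without control 4 (green). All 10 dark points lie below 0, and without control 4 the points of Csf1r, C1qc and Mrc1 lie above it. The only interval that leaves out 0 is that of Ctss over all 9 arrays.

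Because every knockout was labelled male, the genes were also set against controls 3 and 4, labelled male, in a fit of 3 groups. Again 0 members passed an adjusted p under 0.05, against 10.5% of all genes (4.82% higher and 5.72% lower). At an unadjusted p under 0.05 there were 3 members (C1qb, Tyrobp and Fcer1g), against 30.8% of all genes. The smallest limma adjusted p was that of C1qb, 0.084, with a difference of -0.73 log2 units. In this contrast control 4 is 1 of the 2 reference embryos, and the median member difference was -0.48 log2 units. Without control 4 that median was -0.037, with control 3 as the lone control male, and the knockout mean was lower at 5 genes and higher at 5 (Csf1r, Cx3cr1, C1qa, C1qc and Mrc1). C1qb was then at -0.26 and Cx3cr1 at 0.18 log2 units. Without control 3 the median was -1.05 log2 units, and the knockout mean was lower at 10 of 10 genes. Each of these fits rests on 1 control male, assumed to vary like the other groups. Among the controls, control 3 differed from the mean of the labelled females by -0.54 (Cx3cr1) to 0.26 (C1qb) log2 units. It was the lower at 8 genes and the higher at C1qb and Mrc1.

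For each array and gene, the distance from the mean of the other arrays of the same group was then taken. Control 4 had a median distance of 0.97 log2 units over the members, with all 10 above 0. Over all genes its median distance was -0.0022, with quartiles at -0.16 and 0.17. Control 4 was the highest of the 9 arrays at 21.3% of all genes, a larger share than that of any other array, and the lowest at 18.2%. At 7 of the 10 members it exceeded the other controls by at least 0.9 log2 units, as it did at 3.36% of all genes. It was below them by that much at 1.35% of all genes and at 0 members. Control 4 was also the highest array at all 10 members after quantile normalization and after subtraction of array medians.

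Knockout 11 had the highest value of the knockouts at 9 of 10 members and at 13.2% of all genes, and its median distance was 0.37 log2 units. Aif1 was the exception, where knockout 10 was slightly higher. Knockout 5 had the lowest value of the knockouts at 8 members and at 34.4% of all genes, with a median distance of -0.39. That array also had the lowest median of the 9, 7.61, but it was lowest of the knockouts at 8 members after quantile normalization and after subtraction of array medians too. At Csf1r and Cx3cr1 knockout 7 was lowest in place of knockout 5. The whole knockout group spanned 0.472 (Cx3cr1) to 0.957 (Aif1) log2 units, wider than the genotype difference of each gene. A range of single embryos is not the error of a difference of means, which the standard errors above give. Whether the dissection, the stage or the litter of these embryos moved with the values was not tested.

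**Figure D3:**
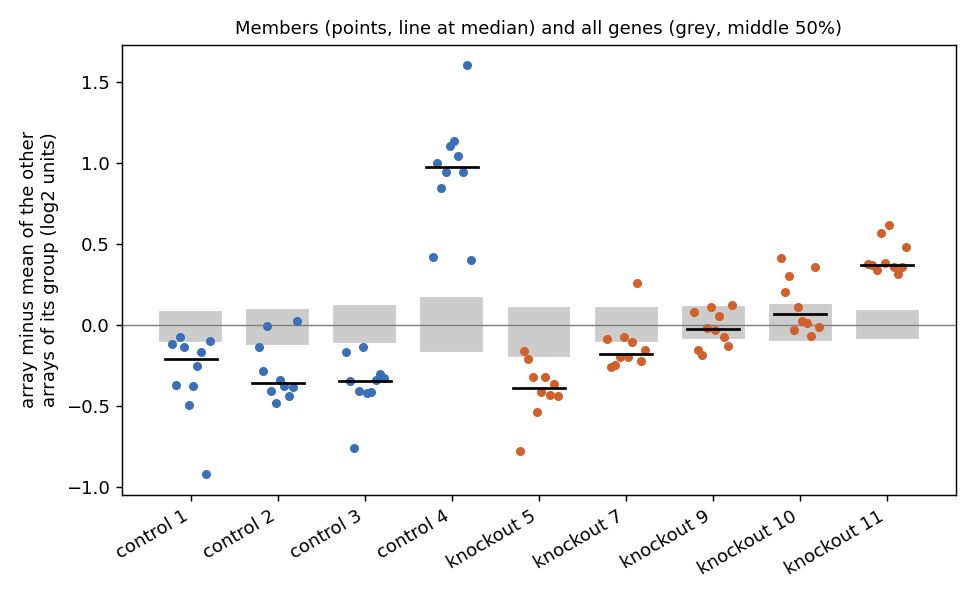
Distance of each array from the mean of the other arrays of its group in log2 units (vertical axis), for the 10 genes (points, black line at the median) and for all genes (grey box, middle 50%). Control 4 has all 10 points above its grey box and knockout 11 has all 10 above its own. Controls 1 to 3 lie low in part because control 4 is in the mean they are compared with.

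The members followed one another across embryos. After each group's mean was subtracted, Pearson's r of a member with the mean of the other 9 ran from 0.745 (Aif1) to 0.988 (C1qc) over 9 arrays. Without control 4 it ran from 0.589 (Cx3cr1) to 0.959 (C1qc) over 8 arrays. These are descriptions over embryos in which 1 array weighs heavily. Among genes outside the list, 228 (1.87%) had an r of at least 0.9 with the mean of the 10. Without control 4 there were 93 (0.764%), of which 19 were among those 228. The 5 nearest over 9 arrays had an r of 0.973 to 0.982, and control 4 exceeded the other controls at all of them, by 0.38 to 1.25 log2 units. They were picked by a mean that includes control 4, so the choice itself favoured genes high in that array. Over the 8 arrays without control 4 the same 5 genes had an r of 0.899 to 0.932. Their knockout mean was below the control mean at 4 and above it at 1. The first of them were ENSMUSG00000041378 and ENSMUSG00000031451, both with an r of 0.982. Of these, ENSMUSG00000041378 had 9.77, 9.82, 9.84 and 10.5 log2 units in controls 1 to 4 and 9.14 to 9.57 in the knockouts. ENSMUSG00000031451 had 8.18, 8.33, 8.16 and 9.31 in controls 1 to 4 and 8.0004 to 8.56 in the knockouts.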

How the data were processed

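The deposited values are log2 expression, 1 per gene and array, processed by the authors. The affy package is named in the submitters' processing notes, while its version, the background correction, the normalization and any filter are not stated there. The 10 members and their symbols come from the identifier list that defines the group. No other identifier was named, since the Ensembl column of the RefSeq table (GRCm38.p6, 49997 genes) has 0 entries. Planned counts for other macrophage genes and other cell types were therefore not run. The rule for the members uses identifiers only and no measured value, but the members, lists and tests were chosen with earlier results of these data known. Naming was by rule: all members, and the non-members of highest r.

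Knockout and control were compared with limma 3.58.1 in R 4.3.3 (lmFit, eBayes) over all 12188 genes and 9 arrays, two-sided, with Benjamini-Hochberg adjustment over all genes and a call under 0.05. A second limma fit took knockout males, control males and control females as 3 groups. The fit was tested on simulated data. Depth does not apply to arrays, and the number of embryos limits precision. The embryos were treated as independent although some shared a litter. Replicate numbers are not shared between groups. The alternatives tried were males only, sex as a covariate, median subtraction, quantile normalization, the dimmest 50% left out, an intensity trend, array weights and each array left out. Figures used matplotlib 3.10.9.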

Additional observations from a re-analysis of the deposited data

Results flagged for a closer look

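In 4 of the 10 genes control 4 stood apart from its group by Dixon's ratio, the gap to the nearest array divided by the range of the group, for which 0.829 is the 95% limit with 4 arrays. The ratio was 0.919 at Aif1, 0.935 at Csf1r, 0.949 at C1qc and 0.892 at Tyrobp. It was under the limit at the other 6 genes, and at none of the 10 in the knockouts. Chance flags about 1 in 20 groups (20 were tested here), and over all genes 11.9% passed in the controls. Control 4 was the high array past the limit at 5.07% of all genes. These 4 tests are not independent, since they share the same 4 arrays.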

How the results depend on the processing

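No paired analysis was possible because it is not stated which embryos were littermates. Knockout and control embryos also share no replicate numbers. The number of members called between genotypes stayed at 0 in every alternative but 1: without knockout 11 it was 1 (Ctss), so it ran from 0 to 1 with single arrays left out. Against male controls it was 0 in every alternative that kept controls 3 and 4. With 1 of these left out, the lone control male is assumed to vary like the other groups. The median member difference of that contrast was then -0.037 log2 units without control 4 and -1.05 without control 3. The count over all genes, 2997, was 1285 with sex as a covariate, 324 in males only and 4562 with array weights, and ran from 1976 (without control 1) to 3263 with single arrays left out. Array weights gave control 4 the lowest weight, 0.243. With them 5 of the 10 genes were higher in the knockout, by 0.10 at Csf1r, 0.0052 at C1qa, 0.014 at C1qb, 0.096 at C1qc and 0.31 log2 units at Mrc1. With single arrays left out the difference ran from -0.24 to 0.10 at Csf1r, from -0.36 to 0.049 at C1qc and from -0.39 to 0.24 at Mrc1, and the values above 0 were those without control 4. None of these 8 values had a limma adjusted p under 0.05. The cause was not tested beyond control 4's weight and removal. In the comparison of knockout with control, the median member difference kept its sign in every alternative. It ran from -0.071 with array weights to -0.48 with sex as a covariate. Leaving out the dimmest 50% of genes kept 4 members.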
